A study of Mus musculus with 7 samples.

Results

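The chromatin around Ttr and Gc, which encode 2 plasma carrier proteins that the study uses as hallmark genes of alpha cells, was described in ATAC-Seq peak calls from alpha, beta, and delta cells of the mouse islet. Every peak that overlaps the GENCODE gene body of Ttr or Gc, or the 50 kb on either side of it, was taken. These were 164 of the 1190565 distinct peaks in 7 lists. Overlapping peaks (at least 1 bp) of different libraries were joined into 80 regions, 44 around Ttr and 36 around Gc, of 834695 in the genome. Of these, 25 were called in at least 2 libraries, 15 around Ttr and 10 around Gc, of 133698 in the genome.

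In ATAC-Seq, Tn5 transposase cuts DNA where chromatin is accessible, and a peak marks a stretch with more cuts than expected from its surroundings in that library. The 2 alpha, 3 beta, and 2 delta libraries came from cells sorted by FACS from islets of healthy mice that carry mIns1-H2b-mCherry and Rosa-LSL-YFP together with either Gcg-Cre or Sst-Cre. Nuclear mCherry from an Ins1 promoter marks beta cells. YFP marks cells in which Cre driven by Gcg or Sst sequences has been active at any time. The YFP gate therefore follows the history of a cell. Cells with both mCherry and YFP were left out of all samples, according to the study. Mice were pooled by sex for each sample, the median yield was 20000 cells, and the age of the mice is not given in the sources used here. Replicates are therefore pools of mice. The study's methods state that cell types came from the same animals, but which libraries share mice is not given. If the study numbers its replicates as the labels do, the pools of alpha 1, beta 2, and delta 1 were female and those of the other 4 libraries were male. Its sample table lists a further beta sample, not analysed here. This is the beta replicate that the study removed for a low fraction of reads in peaks. Peaks on chromosome Y were 0.0816%, 0.121%, and 0.0924% of those of alpha 1, beta 2, and delta 1. They were 0.442% to 3.52% in the other 4 libraries, the same split as by these sexes. Numbers within a sex, such as beta 1 and 3, may still differ.

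Transthyretin, the product of Ttr, carries thyroid hormone in plasma and, bound to retinol-binding protein, also carries retinol. The product of Gc is the vitamin D-binding protein, a member of the albumin family that also binds actin released from damaged cells. The liver makes most of the plasma pool of both proteins, the choroid plexus also makes transthyretin, and both genes are known to be expressed in islet alpha cells. In the liver, transcription of such genes depends on factors of the FOXA, HNF1, HNF4, and C/EBP families, several of which are also expressed in islet cells.

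The 7 lists differed in length and in strength, which bears on every count that follows. Alpha 1 and 2 had 131151 and 111961 distinct peaks, beta 1, 2, and 3 had 518503, 91089, and 103935, and delta 1 and 2 had 158066 and 75860. The -log10 q of a peak, where q is its p-value adjusted by the peak caller over the whole list, reached 2 in 39.7% and 43.8% of the alpha peaks, in 5%, 35.2%, and 36.6% of the beta peaks, and in 29.8% and 54.9% of the delta peaks. A -log10 q of 2 is the stricter threshold used in the text. The list of beta 1 was therefore long and mostly weak. By the same numbers, unique reads were fewest in beta 1, and fewer in all beta libraries and delta 2 than in both alpha libraries and delta 1. The further beta sample was removed by the study, so all beta libraries had fewer unique reads than both alpha libraries however they are numbered. Which beta library had the fewest depends on the numbers. The lists give no read counts, and how weak a site could be and still be called cannot be computed from them.

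Labels and list names disagreed for beta cells. The list labelled beta 1 has alpha in its name, and those labelled beta 2 and beta 3 have delta. Beta cells were sorted from both mouse lines, beside alpha cells in the Gcg-Cre line and beside delta cells in the Sst-Cre line, and whether the list names refer to this is not given. Cell types were taken from the labels. The labels were then set against the -log10 q of peaks at the starts of marker genes. Gcg, which encodes glucagon, had 16.8 and 16.5 in the alpha libraries and 2.40 in delta 2, with no peak in the other 4 libraries. Irx2, a homeobox gene of alpha cells, had 28.7 and 47.7 in the alpha libraries, 0.0774, 3.58, and 10.9 in the beta libraries, and 10.2 and 10.8 in the delta libraries. Irx1, another of these genes, had 15.2 and 6.16 in the alpha libraries, 2.79 and 1.65 in the delta libraries, 1.43 in beta 3, and no peak in beta 1 and 2. Ins1 had 7.34, 1.82, and 6.39 in the beta libraries, 0.736 and 1.42 in the alpha libraries, and 3.42 and 0.889 in the delta libraries. Ins2 had a peak in beta 3 only, with 1.43, and Slc2a2 in none. The beta marker genes as a list were not highest in beta libraries. The summed -log10 q of all 7 was 27.9, 18.8, and 56.1 in the beta libraries, 46.2 and 63.3 in the alpha libraries, and 51.5 and 44.9 in the delta libraries. Ucn3, a gene of mature beta cells, had 1.76 and 0.958 in beta 1 and 3 and no peak in beta 2, against 2.41 and 1.88 in alpha and 4.77 and 2.24 in delta libraries. Hhex, a regulator of delta cell identity, had 12.3 and 5.21 in the delta libraries, 2.16 and 3.84 in the alpha libraries, 0.0774 in beta 1, and no peak in beta 2 and 3. Sst, which encodes somatostatin, had a weak peak on its start in the delta libraries alone, with 0.951 and 0.966, and a peak of 2.34 beside it in beta 1. The 5 delta marker genes summed to 31.2 and 32.1 in the delta libraries, 17.2 and 21.1 in the alpha libraries, and 4.62, 0, and 5.96 in the beta libraries.

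Most marker genes of other cells of the pancreas had weak peaks or none at their starts. None of the 7 acinar and 4 immune genes matched reached a -log10 q of 2 in any library. Of 4 duct genes (Cftr, Krt19, Muc1, and Sox9), 1 did in delta 1 and 2 did in delta 2, and none did in the alpha and beta libraries. Their summed -log10 q was 5.32 and 9.31 in the delta libraries and at most 1.82 in any other, with Cftr the strongest at 5.32 and 4.47, Muc1 at 2.91 in delta 2, and Krt19 without a peak. Cftr also had a weak peak in every alpha and beta library, at 0.278 to 1.82. Of 3 endothelial genes only Kdr in delta 1 did, with 4.14. The part of such cells in the delta values was not tested.

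Ttr (ENSMUSG00000061808.4) lies on chromosome 18 of mm10 from 20665280 to 20674321 on the plus strand and has 4 exons. The antisense gene Gm16090 starts 20 bp from the start of Ttr and runs in the opposite direction, so an accessible region at the Ttr start is shared by both genes. The 3′ end of B4galt6, which encodes a galactosyltransferase that makes lactosylceramide, lies 10278 bp beyond the end of Ttr. The start of B4galt6 is 22083 bp outside the window. The start of a gene is its annotated 5′ end, or transcription start site (TSS).

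Accessible chromatin on the start of Ttr itself was called in alpha 1, alpha 2, and beta 3. The peak of alpha 1 had a fold enrichment of 6.47 and a -log10 q of 6.80, with its summit 58 bp into the gene. The peak of alpha 2 had a fold enrichment of 5.50 and a -log10 q of 5.37, with its summit 11 bp into the gene. The peak of beta 3 was weaker, with a fold enrichment of 3.68 and a -log10 q of 1.91, and its summit lay 60 bp upstream. Both alpha libraries thus passed the stricter threshold at this position and no other library did. A peak on the start in both alpha and in neither delta library was found at 1.22% of 21938 protein-coding genes.

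In delta cells the peak lay farther into the gene. Its summit was 972 bp from the start in delta 1 and 833 bp in delta 2, in intron 1, with a -log10 q of 3.76 and 3.46. The same region, which reaches over exon 2 to intron 2, also had weak peaks in beta 1, beta 2, and beta 3, with a -log10 q of 1.10, 1.48, and 0.909, and in alpha 1, with 1.49. Within 1 kb of the start, a call at any position would therefore have counted alpha and delta libraries alike although their peaks do not overlap. By that count both alpha and both delta libraries and none of the beta libraries passed the stricter threshold, which was the case for 2.05% of genes.

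**Figure D1:**
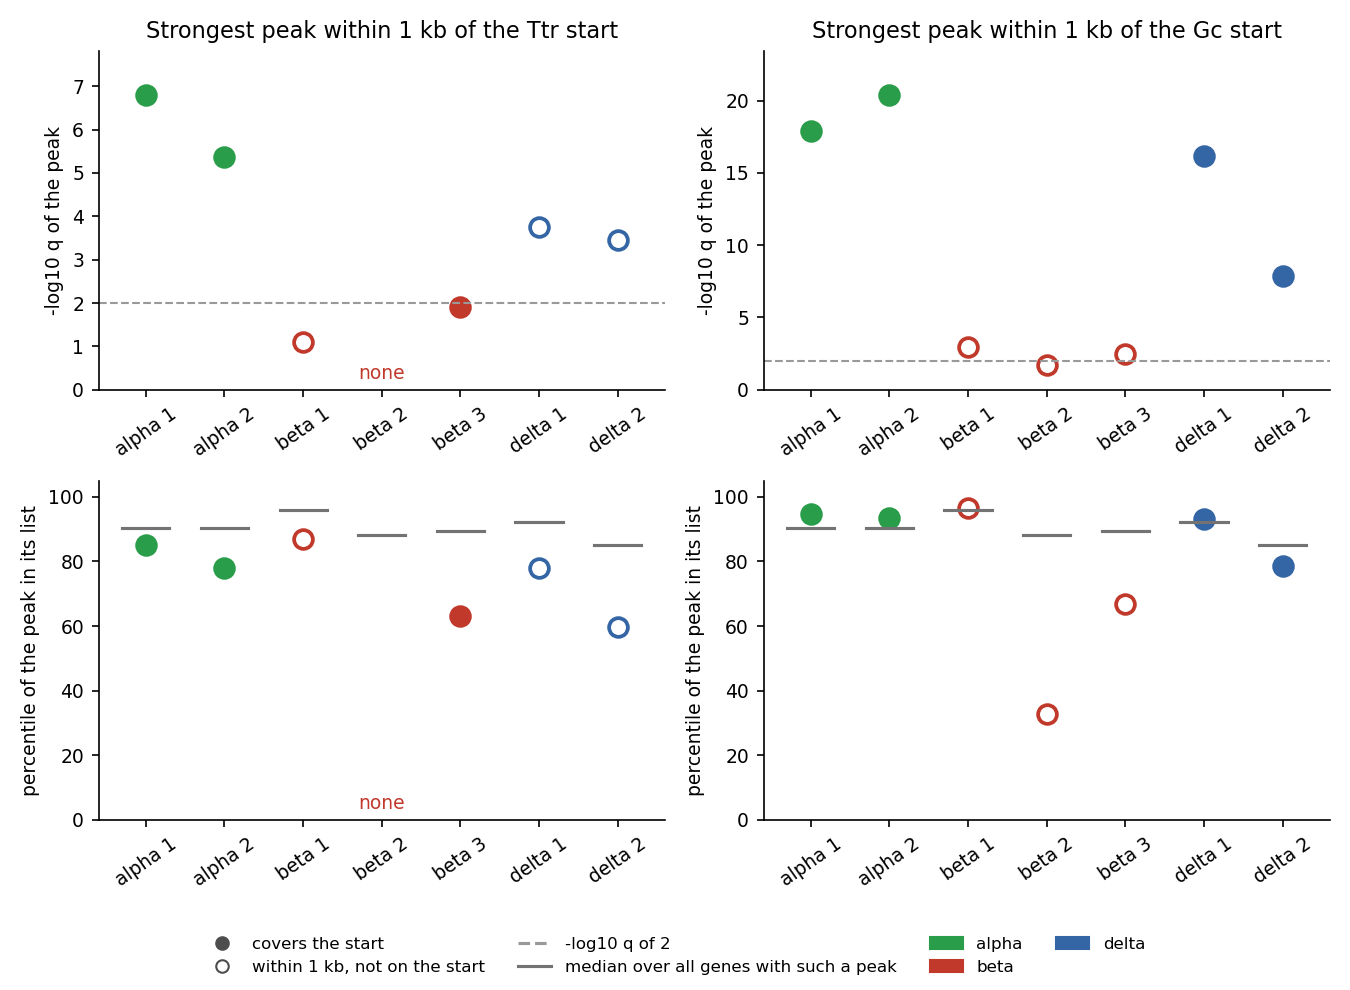
Strongest peak within 1 kb of the start of Ttr (left) and Gc (right) in each library, as its -log10 q (top, dashed line at 2) and as its percentile by -log10 p within its own list (bottom, bars for the median over all protein-coding genes with such a peak in that library). Filled points cover the start itself and open points do not, and the colours stand for alpha, beta, and delta cells. For Ttr only alpha 1, alpha 2, and beta 3 are filled and beta 2 has no peak, and for Gc the 3 beta libraries are open and lowest by -log10 q, while by percentile beta 1 is the highest of the 7.

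The -log10 p of the strongest peak within 1 kb of the Ttr start was 9.58 and 8 in the alpha libraries, 3.58 and 4.43 in beta 1 and beta 3, and 6.24 and 6.02 in the delta libraries, and beta 2 had no peak. Values of the alpha libraries were above those of the other 5, as they were at 9.82% of genes. Those of the alpha and delta libraries were all above those of the beta libraries, as they were at 21.3% of genes. The -log10 p grows with sequencing depth, so the percentile of the peak within its own list was compared between cell types, with 0 for no peak. Alpha 1 and 2 had 85 and 77.9, beta 1, 2, and 3 had 86.9, 0, and 63.1, and delta 1 and 2 had 78 and 59.8. Alpha and beta values overlapped, since the weak peak of beta 1 ranked high in a list of mostly weaker peaks.

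The mean percentile at Ttr was 81.5 ± 5.04 (SD, n = 2) in alpha, 50.0 ± 44.9 (SD, n = 3) in beta, and 68.9 ± 12.8 (SD, n = 2) in delta cells. The difference between alpha and beta cells was 31.5 (two-sided exact permutation test over libraries, p = 0.700), that between alpha and delta cells was 12.6 (exact permutation p = 0.667), and that between beta and delta cells was -18.9 (exact permutation p = 0.900). Against the other 5 libraries together, the alpha mean was 23.9 higher (exact permutation p = 0.524). None was larger than the spread between libraries, and the adjusted p over all 16 tests was 0.900 for each. The smallest p that these numbers of libraries allow is 0.1 for 2 against 3, 0.333 for 2 against 2, and 0.0476 for 2 against 5, so only the last could pass 0.05. Among peaks past the stricter threshold, ranked anew, that difference was 45.4 with the smallest possible p (exact permutation p = 0.0476, not adjusted). Within lane 6, which the list names give for alpha 1, alpha 2, and beta 1, the difference between alpha and beta was -5.42. Under the stricter threshold no beta library has a peak within 1 kb of the Ttr start, so all 3 beta values count as 0. The smallest possible p for alpha against beta then follows from the cut. These zeros also enter the 45.4 above. The differences between cell types were 56 for alpha against beta (exact permutation p = 0.1, the smallest possible), 29.6 for alpha against delta, and -26.4 for beta against delta cells. With the 50000 strongest peaks of each list, which makes the lists equal in length, these were 47.9 (exact permutation p = 0.1), 21, and -26.9.

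Single libraries decided the size of these differences at Ttr. Without beta 2, which had no peak, alpha against beta cells fell to 6.49, alpha against the other libraries to 9.55, and beta against delta cells turned to 6.13. Without beta 1, alpha against beta cells was 49.9 and beta against delta cells -37.3. Alpha against delta cells was 3.53 without delta 2 and 21.7 without delta 1, and beta against delta cells was -9.79 without delta 1.

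The strongest peak of the Ttr window was at the same place in every library, 48.3 kb beyond the Ttr start in an intron of B4galt6. Its -log10 q was 8.42 and 15.2 in the alpha libraries, 4.62, 9.13, and 12.2 in the beta libraries, and 19.6 and 19.8 in the delta libraries. It was 1 of 2 regions of both windows that were called in all 7 libraries, and 13.3% of all regions of at least 2 libraries were. Both delta values were above those of the other 5 libraries, and alpha and beta values overlapped. As a percentile within its own list the peak stood at 87.6 to 97.7. There the alpha libraries, at 87.6 and 90.8, were below the other 5, and the delta and beta values overlapped. The share of regions with either order is not given here.

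Downstream of Ttr, a region 11 kb from the start was called in both alpha and both delta libraries and in no beta library. Its -log10 q was 3.56 and 6.03 in alpha 1 and 2 and 3.04 and 2.01 in delta 1 and 2, and all 4 passed the stricter threshold. It is the only region of the Ttr or Gc windows that was selective for alpha against beta cells by all deposited peaks. Selective means that at least 2 replicates of the first cell type have a peak there and that every replicate of the second has none. A second region, 5.73 kb from the start in intron 3 of Ttr, was called in both delta libraries, with 2.08 and 6.77, and in no other library. Upstream, a region 22.2 kb before the start and inside Gm16090 had 4.42 and 3.05 in the alpha libraries, 8.76 and 2.5 in the delta libraries, and 0.933 and 1.12 in beta 1 and beta 3, with no peak in beta 2. A neighbour 24.7 kb before the start was called in all libraries but delta 2. It had 3.47 and 3.19 in alpha, 2.39, 1.92, and 3.58 in beta, and 4.91 in delta 1. This neighbour spans 1695 bp, and the strongest peaks of alpha 1, alpha 2, and beta 1 in it do not overlap each other.

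The 3 regions of the Ttr window that were selective for beta against alpha cells lay upstream of Ttr. A region 4.47 kb before the start had a -log10 q of 5.31 in beta 2, 0.0774 in beta 1, and 0.951 in delta 1. Another, 47.5 kb before the start, had 2.90 in beta 2 and 1.90 in beta 3. The one 44.9 kb before the start had 1.56 in beta 3 and 0.0774 in beta 1. In each, a single beta library at most passed the stricter threshold. In the reference genome, 96.0% of the 200 bp around the summit of the region at 47.5 kb and 92.5% around that at 44.9 kb were soft-masked as repeats, whereas more than 0.5 of the window was soft-masked in 13.9% of all regions of at least 2 libraries.

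**Figure D2:**
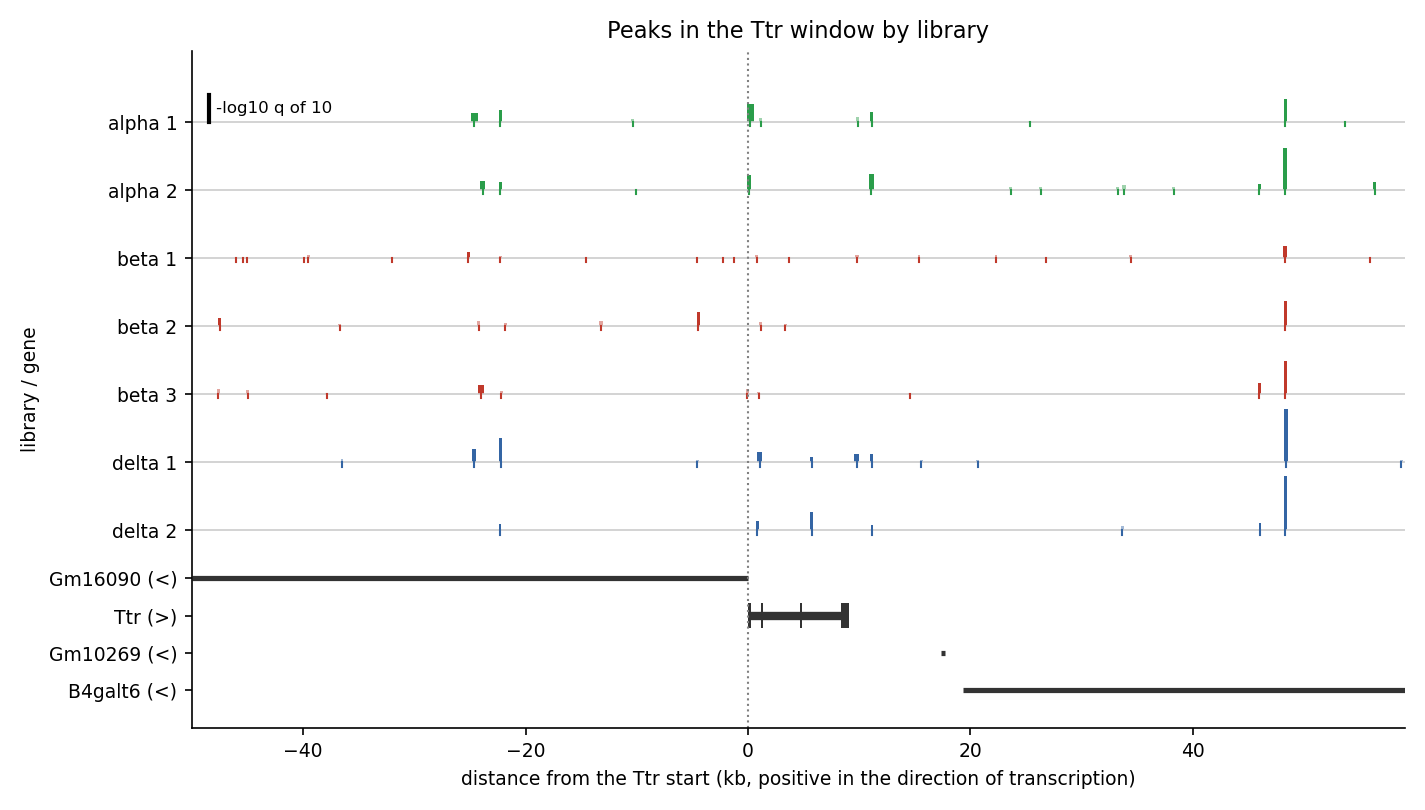
Peaks in the Ttr window by library, plotted against the distance from the Ttr start in kb, with the height of a bar giving the -log10 q (scale bar at 10) and pale bars those under a -log10 q of 2. Bars are at least 250 bp wide, ticks mark peaks of any height, and gene bodies and Ttr exons are drawn below with their direction relative to Ttr. The tallest bar of each row stands 48.3 kb from the start, and the bars at the start are solid in the alpha rows only.

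Gc (ENSMUSG00000035540.12) lies on chromosome 5 of mm10 from 89417522 to 89457898 on the minus strand, with 13 exons in its main transcript. No other protein-coding gene overlaps its window. The nearest other protein-coding start on the upstream side, that of Npffr2, is 69531 bp away. The pseudogene Gm6366 lies upstream.

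A peak lay within 1 kb of the start of Gc in all 7 libraries, as one did at 41.5% of genes, but the strength differed. The -log10 q of the peak was 17.9 and 20.4 in alpha 1 and 2 and 16.2 and 7.87 in delta 1 and 2. It was 2.99, 1.71, and 2.48 in beta 1, 2, and 3. Fold enrichment over the local background was 10.6 and 11.4 in the alpha libraries, 10 and 7.14 in the delta libraries, and 4.24, 3.28, and 4.11 in the beta libraries. The groups of alpha and delta libraries therefore did not overlap with the beta libraries in either value. The -log10 p was highest in the alpha libraries, at 21.2 and 23.7, followed by the delta libraries at 19.3 and 10.8 and the beta libraries at 5.87, 4.09, and 5.05. Both orders, alpha above the other 5 and alpha and delta above beta, were those given above for 9.82% and 21.3% of genes. Beta libraries had fewer strong peaks at starts in general. A -log10 q of 2 was reached within 1 kb of 38.0%, 39.3%, and 47.7% of genes. In alpha libraries this was 53.7% and 56.0%, and in delta libraries 53.3% and 50.8%. Beta libraries also had fewer unique reads than the alpha libraries. The part of either in the difference at Gc was not tested.

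The peaks also differed in extent. In both alpha and both delta libraries the peak covered the start of Gc, and in the beta libraries it lay wholly inside the gene. The beta peaks ended 30, 42, and 85 bp short of the start, with summits 138, 96, and 192 bp into the gene, against 51 and 32 bp in the alpha and 51 and 125 bp in the delta libraries. A peak on the start in all 4 alpha and delta libraries and in no beta library was found at 1.14% of genes. The peak at the start was the strongest of the whole Gc window in both alpha and both delta libraries, and it had rank 3 of 23 peaks in beta 1, rank 7 of 8 in beta 2, and rank 2 of 5 in beta 3. Strongest in every alpha and delta library and in no beta library was a pattern of 0.369% of genes. These patterns were looked for after the values were seen. The beta peaks were also the weakest by -log10 q, and the part of their strength in their extent and rank was not tested.

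Because the alpha and delta peaks extend over the DNA just before the start of Gc and the beta peaks do not, this stretch is shown. It is the 250 bases before the start, chr5:89457899-89458148 on the minus strand of GRCm38, credited to RefSeq. The capitals mark the match to an HNF1 motif, searched as the letters GTTAATNAT on both strands, at bases 44 to 52 before the start when the start itself is counted as 0.
Gc upstream: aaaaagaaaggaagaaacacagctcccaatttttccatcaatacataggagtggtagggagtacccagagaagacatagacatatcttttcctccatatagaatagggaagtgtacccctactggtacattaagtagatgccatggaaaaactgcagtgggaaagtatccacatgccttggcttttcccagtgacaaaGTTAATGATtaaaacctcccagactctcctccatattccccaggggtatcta
Of 21938 promoters of 300 bp (250 bases before to 50 bases from the start), 0.748% held this motif on either strand. Matches to the other 9 motifs searched (TGTTTAC for FOXA, CAAAGTCC for HNF4, TTGCNNAA for C/EBP, AGATAAG for GATA factors, TGCTGAC for MAF, CAGATG for NEUROD, TNAAGTG for NKX2-2, GTTGCCA for RFX, and TATAAA for the TATA box) were not found in the Gc promoter, which says only that these letters are not in this window. None of the 10 was found in the promoter of Ttr. A match is a description of the sequence, and no binding was measured.

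The percentile of the Gc start peak was 94.6 in alpha 1, 93.4 in alpha 2, 96.7 in beta 1, 32.7 in beta 2, 66.9 in beta 3, 93.3 in delta 1, and 78.5 in delta 2. The mean was 94.0 ± 0.802 (SD, n = 2) in alpha, 65.4 ± 32.0 (SD, n = 3) in beta, and 85.9 ± 10.5 (SD, n = 2) in delta cells. On this scale beta 1 was the highest of the 7, because 95.0% of its peaks had a -log10 q under 2. The difference between alpha and beta cells was 28.6 (two-sided exact permutation p = 0.400), that between alpha and delta cells was 8.08 without overlap (exact permutation p = 0.333, the smallest possible), and that between beta and delta cells was -20.5 (exact permutation p = 0.5). Against the other 5 libraries the alpha mean was 20.4 higher (exact permutation p = 0.476). The adjusted p was 0.900 for each. The share of genes where alpha and delta percentiles do not overlap is not given here. Under the stricter threshold alpha against beta cells was 71.3 and beta against delta cells -54.8 (exact permutation p = 0.1 for both, the smallest possible). Alpha against delta cells was 16.4, and alpha against the other libraries was 49.3 (exact permutation p = 0.0952). Beta 2 counts as 0 here, since its peak has a -log10 q of 1.71. With the 50000 strongest peaks of each list, alpha against beta cells was 53.3, beta against delta cells -40.9, alpha against delta cells 12.4, and alpha against the other libraries 36.9 (exact permutation p = 0.0952 for the last). Single libraries also moved these values. Without delta 2, alpha against delta cells fell to 0.681, and without delta 1 it was 15.5. Alpha against beta cells was 12.2 without beta 2 and 44.2 without beta 1, and alpha against the other libraries was 10.2 without beta 2. Beta against delta cells was -4.15 without beta 2, -36.1 without beta 1, and -13.1 without delta 1. Within lane 6 the difference between alpha and beta was -2.68, from alpha 1, alpha 2, and beta 1. Both alpha lists carry lane 6 in their names and both delta lists lane 7, so lane and cell type cannot be told apart in that pair.

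Beyond the start, a region 52.6 kb from the start, 12.2 kb after the end of the gene, was called past the stricter threshold in the alpha libraries alone, with a -log10 q of 2.16 and 3.15. A weak peak of beta 1 overlaps it, with 0.0774, and delta libraries had none. By contrast, a region 87.6 kb from the start was called in no alpha library. Its -log10 q was 1.10 and 4.66 in beta 1 and 2 and 12.2 and 3.21 in delta 1 and 2. A region 73.5 kb from the start was the strongest of the window in beta 1 and 2, with 8.54 and 10.7. It had 1.43 in beta 3, 2.98 and 7.11 in delta 1 and 2, 0.278 in alpha 1, and none in alpha 2.

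The 200 bases around the summits of these regions are shown on the strand of Gc, since past the stricter threshold each was called in both libraries of alpha or of delta cells and in none of the other. The beta libraries differed among themselves, in calls at 52.6 and 87.6 kb and past the stricter threshold at 73.5 and 87.6 kb. Capitals mark motif matches, which are FOXA and NKX2-2, both on the opposite strand, in the region at 52.6 kb. The regions at 73.5 and 87.6 kb held none of the 10 motifs. They lie at chr5:89405233-89405432, chr5:89384304-89384503, and chr5:89370241-89370440 of GRCm38, in this order, and the bases are from RefSeq.
Gc 52.6 kb: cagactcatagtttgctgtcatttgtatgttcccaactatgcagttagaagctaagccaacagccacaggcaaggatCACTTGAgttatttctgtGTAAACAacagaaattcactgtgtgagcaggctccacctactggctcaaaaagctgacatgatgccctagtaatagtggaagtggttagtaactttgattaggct
Gc 73.5 kb: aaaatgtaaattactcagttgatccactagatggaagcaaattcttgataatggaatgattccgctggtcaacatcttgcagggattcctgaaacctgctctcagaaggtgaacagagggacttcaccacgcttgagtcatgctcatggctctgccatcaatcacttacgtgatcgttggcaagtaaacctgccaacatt
Gc 87.6 kb: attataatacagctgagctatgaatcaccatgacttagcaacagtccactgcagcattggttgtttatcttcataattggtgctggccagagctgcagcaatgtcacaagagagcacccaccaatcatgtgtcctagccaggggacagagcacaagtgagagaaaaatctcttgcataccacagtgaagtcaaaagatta
A FOXA match was held by 4.92% and an NKX2-2 match by 10.6% of 200-bp summit windows of all regions of at least 2 libraries. Of these windows, 1.03% held an HNF1 match.

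Inside Gc, a region in intron 3, 13.3 kb from the start, was called in delta 1 and 2 with a -log10 q of 3.32 and 4.26, in beta 1 with 1.10, and in no alpha library. In the reference, 80.0% of the 200 bp around its summit was soft-masked. A region in intron 1, 9.54 kb from the start, had 2.16 and 2.03 in the alpha libraries, 2.58 and 0.722 in the delta libraries, and 0.0774 and 1.43 in beta 1 and beta 3. Another in intron 1, 2.16 kb from the start, had 1.66 and 2.94 in alpha, 1.75, 1.59, and 3.40 in beta, and 4.01 in delta 1. It was the strongest peak of the window in beta 3. Upstream of Gc, a region 8.60 kb before the start was strong in alpha 2, with 8.29, and absent from alpha 1, with 3.21 in delta 2, 0.951 in delta 1, and 1.10 in beta 1. The alpha replicates therefore disagreed at this region, and 54.5% of its summit window was soft-masked. A region 80.3 kb from the start passed the stricter threshold in alpha 2, beta 1, beta 2, and both delta libraries, at 3.04 to 9.37. It had no peak in alpha 1 or beta 3. Within it, the peaks of alpha 2 and beta 1 do not overlap that of delta 2.

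**Figure D3:**
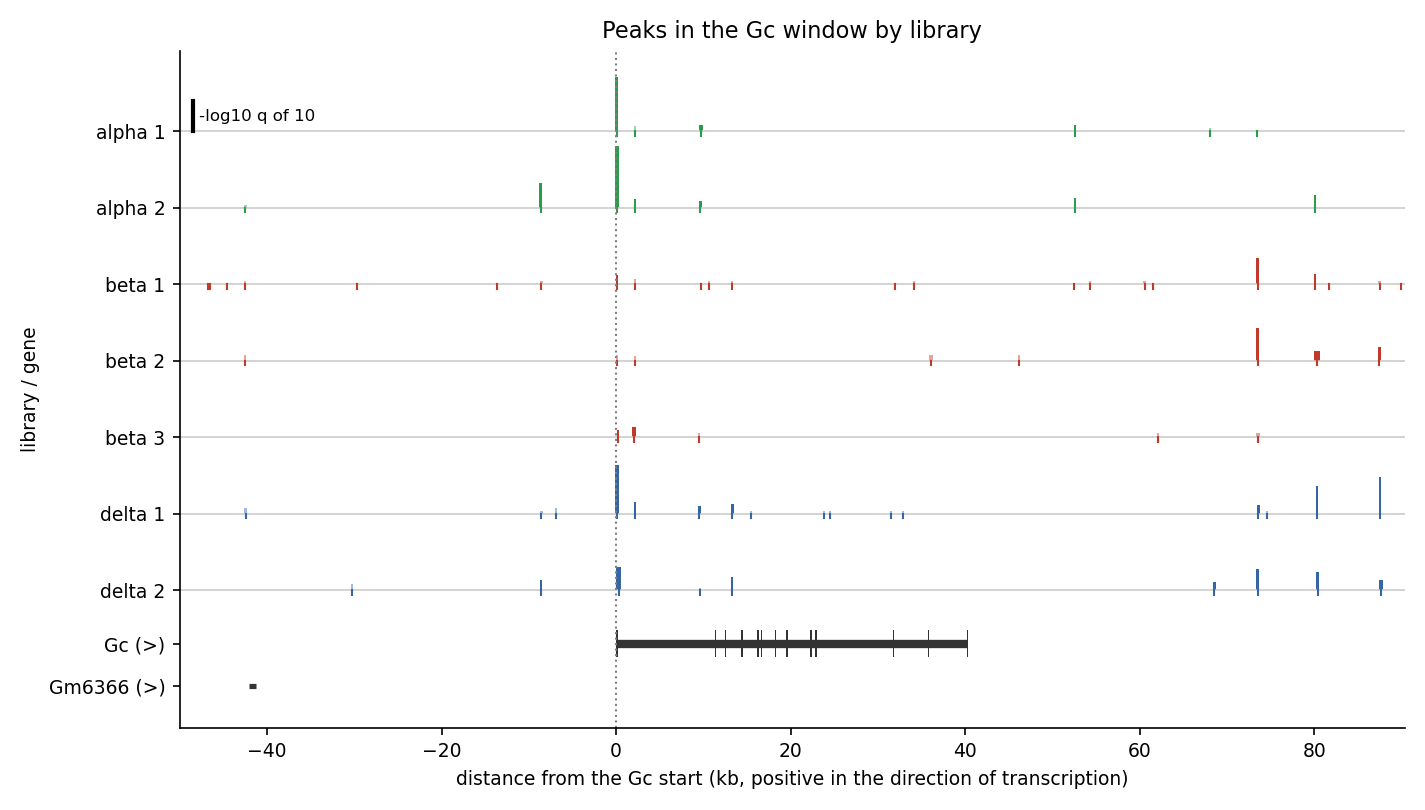
Peaks in the Gc window by library, plotted against the distance from the Gc start in kb along its direction of transcription, drawn as in the map of the Ttr window. The bar at the start is the tallest in both alpha and both delta rows, and in beta 1 and 2 the tallest stands 73.5 kb away.

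Counted over both windows, few of the 25 regions of at least 2 libraries were selective between cell types. Against beta cells, 1 region was alpha-selective (background 5.41% of all regions of at least 2 libraries), and 4 were beta-selective against alpha cells (14.8%). Alpha against delta cells gave 2 regions (5.38%), the Ttr start and the region 52.6 kb from the start of Gc. Delta against alpha cells gave 3 (5.13%), in intron 3 of Ttr, in intron 3 of Gc, and 87.6 kb from the start of Gc. Delta against beta cells gave 2 (4.85%) and beta against delta cells gave 2 (13.2%). In percent of the 25 regions these were 4%, 16%, 8%, 12%, 8%, and 8%. Single libraries moved these small counts. The alpha-selective count against beta cells was 2 without beta 1 or without beta 3, and the beta-selective count against alpha cells was 1 without beta 1 or beta 2 and 2 without beta 3. Alpha against delta cells gave 4 without delta 1, delta against alpha cells gave 5 without alpha 1 or without alpha 2, and delta against beta cells gave 4 without beta 1. Beta against delta cells gave 1 without beta 1 or beta 2, 0 without beta 3, and 6 without delta 1.

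With peaks past the stricter threshold only, 8 regions of the Ttr window and 9 of the Gc window were called in at least 2 libraries. Of these 17, 5 were alpha-selective against beta cells (background 14.9%), at 22.2 kb before, at, and 11 kb after the Ttr start and at 9.54 and 52.6 kb from the Gc start. Only 1 was beta-selective against alpha cells (5.63%), 73.5 kb from the Gc start. Alpha against delta cells gave 2 (8.32%), the same 2 places as with all peaks. Delta against alpha cells gave 5 (7.9%), and delta against beta cells gave 5 (13.5%), of which 4 lay around Ttr. None was beta-selective against delta cells (4.15%), and 1, in the intron of B4galt6, was called in all 7 libraries (21.6%).

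The regions not yet described were weak or did not follow cell type. In the B4galt6 intron, a region 46 kb from the Ttr start had a -log10 q of 2.11 in alpha 2, 4.16 in beta 3, and 2.67 in delta 2. A region 9.66 kb from the Ttr start had 2.91 in delta 1 and less in alpha 1 and beta 1. Those 36.5 kb before and 15.4 and 33.8 kb after the Ttr start and 42.6 kb before the Gc start reached 2 in no library. A further 55 regions were called in a single library, 26 of them in beta 1, and 2 of these passed the stricter threshold, 56.3 kb from the Ttr start in alpha 2 (3.15) and 68.5 kb from the Gc start in delta 2 (2.64).

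**Figure D4:**
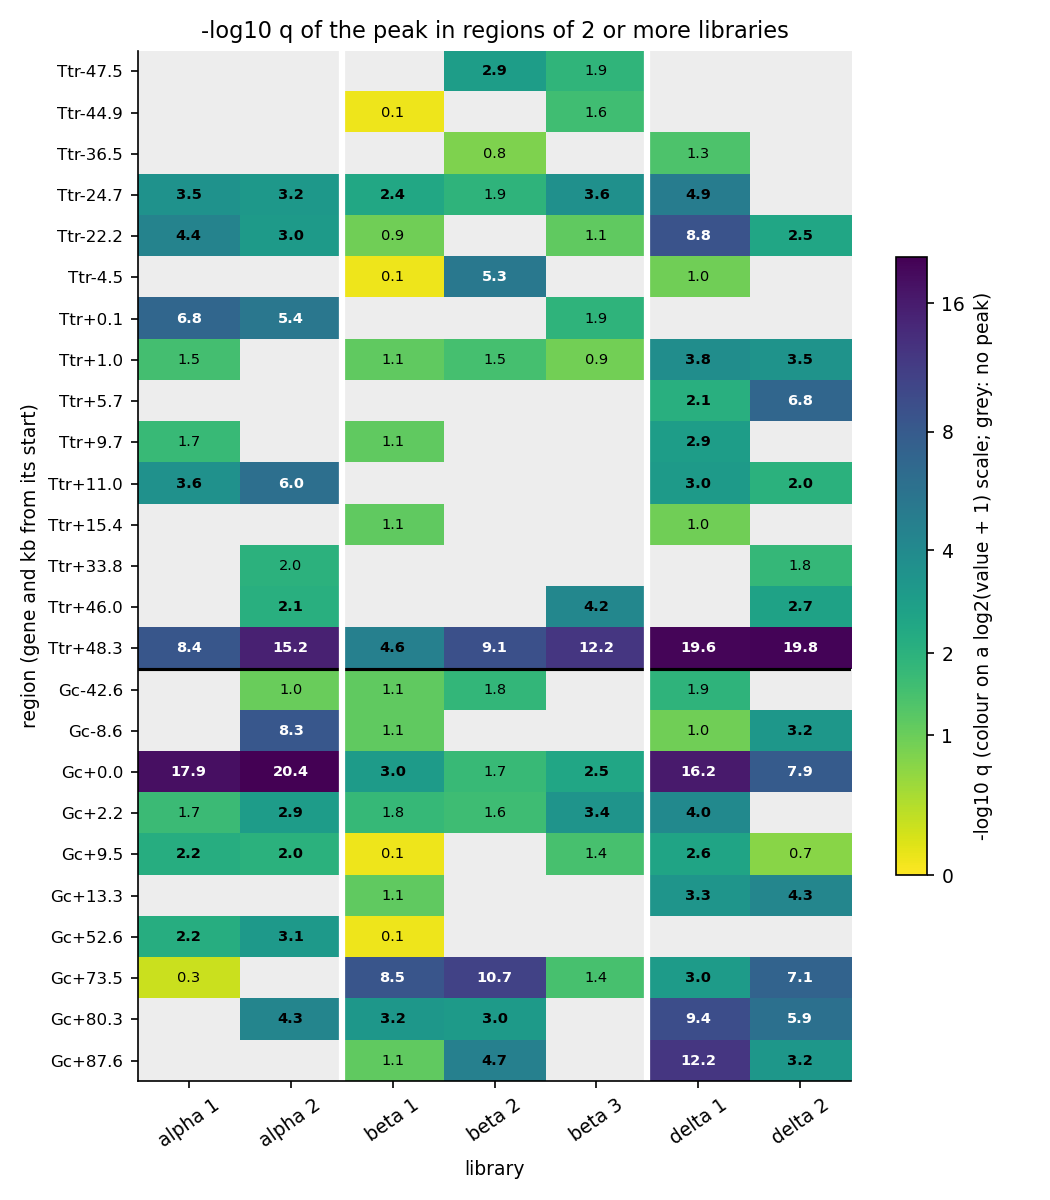
The -log10 q of the strongest peak in each of the 25 regions of at least 2 libraries, by library, with regions named by gene and kb from its start and ordered along the direction of transcription. Bold values reach a -log10 q of 2 and grey cells have no peak. The start of Gc and the region 48.3 kb from the Ttr start are filled in all columns, and the start of Ttr is bold in the alpha columns only.

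The share of each window that lay in peaks was compared as a summary of accessibility over the locus. In the Ttr window it was 3.03% and 3.92% in the alpha libraries, 4.65%, 2.13%, and 2.54% in beta 1, 2, and 3, and 3.50% and 1.58% in the delta libraries. In the Gc window it was 1.24% and 1.74% in the alpha libraries, 3.63%, 1.71%, and 0.983% in the beta libraries, and 2.97% and 2.27% in the delta libraries. Alpha libraries thus had less of the Gc window in peaks than both delta libraries, although their peak at the start was stronger. The share of gene windows with this order is not given here. The difference between alpha and delta cells was -1.13 percentage points at Gc (two-sided exact permutation p = 0.333, the smallest possible) and 0.935 at Ttr (exact permutation p = 0.667). The difference between alpha and beta cells was -0.620 at Gc (exact permutation p = 0.900) and 0.369 at Ttr (exact permutation p = 0.8), and that between beta and delta cells was -0.512 at Gc (exact permutation p = 0.8) and 0.567 at Ttr (exact permutation p = 0.700). Against the other 5 libraries the alpha mean differed by -0.825 at Gc (exact permutation p = 0.429) and 0.595 at Ttr (exact permutation p = 0.571). All adjusted p were 0.900, and the direction of alpha against beta cells rested on 1 library in both windows. It turned at Gc without beta 1, to 0.140, and at Ttr without alpha 2, to -0.0798, or without beta 2, to -0.122. At Ttr, the difference between alpha and delta cells turned to -0.0220 without delta 2, and that between beta and delta cells to -0.205 without beta 1 and to -0.391 without delta 2. At Gc, that between beta and delta cells turned to 0.0495 without beta 3.

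Genes with a related role were read at their starts in the same way, by the number that passed the stricter threshold in both alpha libraries (51.5% of all genes), in at least 2 beta libraries (41.4%), and in both delta libraries (48.4%). Of 11 genes of thyroid hormone transport and action, Ttr included, these were 4, 4, and 4, and Ttr counts in the first and last. The amino acid and thyroid hormone transporter gene Slc16a10 and the receptor gene Thrb were far stronger than Ttr in all 7 libraries, at a -log10 q of at least 14.3. Serpina7, which encodes the other thyroid hormone carrier thyroxine-binding globulin, had no peak in any library. Of 9 genes of retinol transport and action, Ttr included, the numbers were 4, 1, and 4, and Ttr again counts in the first and last. Rbp4, which encodes the plasma retinol carrier that binds transthyretin, had 9.67 and 6.20 in alpha and 6.12 and 12.8 in delta libraries and no peak in any beta library. Ttr and Rbp4 were the 2 genes of this list that passed in both alpha libraries and in no beta library, a pattern of 4.2% of genes.

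Of 9 genes of vitamin D transport and action, Gc included, the numbers were 3, 2, and 2, and Gc counts in each. Cyp2r1, the vitamin D 25-hydroxylase gene, had 17.8 and 9.89 in alpha, 1.10, 1.82, and 5.19 in beta, and 8.63 and 2.96 in delta libraries. Vdr, the vitamin D receptor gene, and Cubn, whose product takes up the carrier in the kidney, had no peak at their starts. In the albumin family Gc stood alone. Afm and Afp had no peak in any library, and Alb had one in alpha 2 only, at 1.02.

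Of 16 genes of other liver plasma proteins, 2 passed in both alpha libraries, 1 in at least 2 beta libraries, and 1 in both delta libraries. Apob, the apolipoprotein B gene, had 10.5 and 6.45 in alpha, 2.99, 2.91, and 1.54 in beta, and 14.2 and 4.59 in delta libraries. Apoh, the apolipoprotein H gene, had 4.82 and 15.4 in alpha, 0.0774 and 1.43 in beta 1 and 3, no peak in beta 2, and 9.11 and 1.93 in delta libraries. Of 11 genes of hepatic regulators the numbers were 8, 5, and 6. Foxa1 had 20.2 and 18 in alpha, 1.82, 1.87, and 4.90 in beta, and 8.17 and 8.65 in delta libraries. Gata6 had 34.3 and 55.1 in alpha, 5.01, 3.92, and 3.40 in beta, and 45.3 and 40 in delta libraries. Not all of the list were weakest in beta libraries. Foxa3 had 18.7 and 30.2 in alpha, 14, 4.76, and 37.8 in beta, and 21.7 and 15.3 in delta libraries, and Hnf4g had 10.2 or more in all 7. Of 9 alpha cell genes matched of 10, 8 passed in both alpha libraries, 5 in at least 2 beta libraries, and 5 in both delta libraries.

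By the mean absolute difference of the percentile over the 7 libraries, the genes most like Ttr at their starts included Kcns3 (2.17), Creb5 (3.04), Fam20a (3.05), and Phf5a (3.18). Those most like Gc were Hgfac (3.31), Casc4 (3.40), Anxa11 (3.46), and Retreg3 and Tubg1 (3.58 each), which share a promoter. This is a likeness of 7 values that share library effects.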

How the data were processed

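ATAC-Seq was performed on FACS-sorted alpha, beta, and delta cells, with single-end reads of 50 bp and fragments of 450 bp on average per the labels. According to the study's methods and the submitters' processing notes, the authors used FastQC and Trimmomatic for quality and trimming and Bowtie 2 for alignment to mm10 (GRCm38), without the mitochondrial genome. Duplicates (Picard) and blacklist regions were then dealt with, and MACS2 was run on each library separately. Versions and the threshold of MACS2 are not given in the sources used here, and the lowest -log10 p was 2.01 in every list. The deposited -log10 p and -log10 q come from the authors' MACS2 run on the same library, with no normalization between libraries. The deposited fold enrichment is a ratio, that of the summit signal to the background expected around it. The deposited score, which is scaled from the -log10 p, was not used as a measure. Whether read positions were shifted for the Tn5 cut is not given, and such a shift moves a summit by a few bases.

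Rows that repeat an interval were counted once, by the strongest summit. Gene bodies and starts are those of GENCODE vM21, and sequences those of GRCm38.p6 from RefSeq. Identical intervals made up at most 1.12% of the shorter list of any pair of libraries. The number of peaks and the share past a -log10 q of 2 describe a list and do not measure its depth. The lists hold no counts, so the authors' test of read counts was not repeated. Percentiles within a list and the percent of a window in peaks were compared between cell types by two-sided exact permutation tests over libraries, with Benjamini-Hochberg adjustment over 16 tests. These p-values set a difference against the spread between libraries, which also differ in lane, unique reads, and list length. Libraries were permuted as if independent, although some may share mice. The genes, gene lists, motifs, and tests were chosen with earlier results of these data known, and the patterns over all genes after the values were seen. The rule for similar genes took the 5 protein-coding genes with the smallest mean absolute difference in percentile, and values of some genes of these rules and lists are not reported here. Of the genes listed, Tmem27 and Amy2b were not matched. Alternatives were the stricter threshold, 50000 peaks per list, a start window of 3 kb, any transcript start, windows of 20 and 100 kb, the number of peaks, coverage relative to the chromosome, coverage of 0.5 of a region, each library left out, a replicate block, a block by the sex of the pools (from the study's sample table, read by replicate number, and added after seeing the data), and libraries of 1 lane. Steps were tested on simulated lists with known answers. The software was Python 3.11.15, scipy 1.17.1, pandas 2.3.3, numpy 2.4.6, and matplotlib 3.10.9.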

Additional observations from a re-analysis of the deposited data

How the results depend on the processing

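Of 242 values under alternatives, 196 kept their direction and their side of 0.05, or stayed within 1.5 times for a count. The difference in Ttr percentile between alpha and the other libraries, with all 3 beta values at 0, passed 0.05 (45.4, exact permutation p = 0.0476). This was under the stricter threshold, a -log10 q of 2 or more. With it, window coverage turned for beta against delta at Ttr (-1.27) and at Gc for alpha against beta (0.441) and against all others (0.0192), and selective regions numbered 5 for alpha and 1 for beta in their pair, 5 for delta against alpha, 5 for delta against beta, and 0 for beta against delta. With 50000 peaks per list, coverage turned for beta against delta at Ttr (-0.610) and alpha against beta at Gc (0.298), and the same counts were 4, 2, 5, 5, and 1. Relative to the share of the chromosome in peaks, a ratio, every coverage difference kept its direction, and beta against delta was 0.0637 at Ttr and -0.986 at Gc and alpha against beta -0.121 at Gc. With coverage of 0.5 of a region, 5 were alpha-selective against beta. By the number of peaks, Ttr differences turned to -1.83 for alpha against beta and -0.100 for alpha against all others. With 20 kb flanks the Gc difference of alpha against beta was 0.0736. Within lane 6, alpha against beta was -5.42 and -2.68 for the percentiles of Ttr and Gc and -1.18 for Ttr coverage, and within lane 7 beta against delta was -0.205 for Ttr coverage. None of the within-lane values has a test.

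Leaving out 1 library at a time moved the Ttr percentile between 6.49 and 49.9 for alpha against beta, 3.53 and 21.7 for alpha against delta, -37.3 and 6.13 for beta against delta, and 9.55 and 31.3 for alpha against the others. The Gc percentile moved between 12.2 and 44.2, 0.681 and 15.5, -36.1 and -4.15, and 10.2 and 26.1 in the same order. It moved Ttr coverage between -0.122 and 1.14 for alpha against beta, -0.0220 and 1.89 for alpha against delta, -0.391 and 1.52 for beta against delta, and 0.147 (without alpha 2) and 1.04 for alpha against the others. It moved Gc coverage between -1.18 and 0.140 for alpha against beta, -1.27 and 0.0495 for beta against delta, and -1.16 and -0.497 (without beta 1) for alpha against the others. Selective regions then numbered 1 to 2 for alpha and 1 to 6 for beta in their pair, 2 to 4 for alpha against delta, 5 for delta against alpha, 2 to 4 for delta against beta, and 0 to 6 for beta against delta. Replicates are numbered in each cell type, but the numbers join pools of different sex (alpha 1 and delta 1 with beta 1), and alpha 1 and delta 1 deviated from their group means in the same direction in 2 of 4 measures. With a replicate block, Gc coverage of beta against delta turned to 0.0495 (exact permutation p = 1), no other direction changed, and coverage of alpha against beta moved to 0.0871 at Ttr and -1.18 at Gc. A block by the sex of the pool, chosen after seeing the data, kept all 16 directions. It has at most 12 assignments of the labels, so no comparison could pass 0.05 under it. It moved 3 values by over 1.5 times, the Ttr percentile of beta against delta to -31.4 and Ttr coverage to 0.614 for alpha against beta and 0.321 for beta against delta. The cause of these changes was not tested. With 2 or 3 lists per cell type and no counts, only alpha against the other 5 libraries without a block could pass 0.05, a missing peak in a shallow list is not a closed region, and at most strong differences can be seen.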
